A study of Arabidopsis thaliana with 9 samples.

Results

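The plastid genome of Arabidopsis thaliana carries the genes for the core of its own RNA polymerase, for part of its ribosome, and for a few proteins that serve neither photosynthesis nor respiration. Their transcripts were compared among 3 lines, iae1, iae2 and B1798. Members were the probe sets numbered 244901 to 245026 on the Affymetrix ATH1 array that read 1 plastid gene whose symbol starts with rpo, rpl or rps, or is clpP, accD, ycf1 or ycf2. This gave 27 of the 22810 probe sets, for 26 genes. Of these, 4 read RNA polymerase genes, 9 read genes of the large ribosomal subunit, 10 read genes of the small subunit, and 4 read accD, clpP, ycf1 and ycf2. Single gene IDs stood behind 20 of them. The other 7 carried 2 gene IDs of a single symbol: rpl2, rpl23, rps7, ycf1 and ycf2 have copies in the repeated part of the plastid genome, and rps12, read by 2 probe sets, is spliced together from separate pieces. Such a probe set cannot tell the copies apart. Among genes of the same kind, matK and rps16 are read by probe sets numbered outside the range and are given at the end.

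Each line was measured on 3 arrays. All plants were of the Ler ecotype and were given 1% sucrose in a growth room, and RNA came from a mix of shoot parts: crown, hypocotyl, cotyledons and the bud at the apex, at a growth stage labelled 1.0. The lines iae1 and iae2 are known from work on raised excision of the maize transposon Ac, and the series asks what lies behind their phenotypes genetically. The labels give no allele, transgene or agent for any of the lines. B1798, which has no iae in its name and which no label calls a control, served as the reference. A pool of 30 plants is mentioned without saying for which unit. The 3 arrays of a line are numbered as replicates and are not said to be separate cultures. The p-values therefore rest on a spread between arrays that may be technical.

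Plastids hold a polymerase of bacterial type, whose catalytic core is encoded in the plastid by rpoA, rpoB, rpoC1 and rpoC2 and which takes its sigma factors from the nucleus. A nuclear-encoded polymerase of phage type also works in plastids and reads, among others, the operon that starts with rpoB and the gene accD. The plastid ribosome resembles that of bacteria and is a mosaic: some of its proteins are encoded in the plastid and the rest are imported. Many plastid genes are transcribed together as long precursors that are then cut and trimmed, so the level of one transcript in a run of genes need not follow that of the next. Plastid mRNAs mostly lack the stable poly(A) tails of nuclear mRNAs, while here the labelled cRNA derived from cDNA that an oligo(dT) primer had started. The signal of a plastid gene is therefore the RNA that this priming reached, and the part of the priming in the differences between lines was not tested.

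Deposited signals had been scaled to a trimmed mean of 100.01 on every array, and array medians lay between 35.9 and 38.5. The GAPDH 3'/5' signal ratio, a sign of RNA quality, ran from 2.275 to 3.109 on the B1798 arrays, from 2.319 to 2.480 on those of iae1 and from 1.733 to 1.984 on those of iae2. The signal of the 25S ribosomal RNA probe set ranged over 3245.8 to 4068.0 in B1798, 4414.7 to 5147.0 in iae1 and 1666.0 to 3528.2 in iae2, so all iae1 arrays lay above the others. Of 9 green leaf markers, 4 were read by a named probe set, and their summed signal ranged over 5768.9 to 6169.6 in B1798, 5775.9 to 6480.7 in iae1 and 6939.6 to 7580.4 in iae2. Of 5 root markers, 4 were read, with sums of 4040.6 to 4508.3, 4010.4 to 4247.8 and 3371.6 to 3734.9 in the same order. PYK10 made up most of the root sum, while the leaf sum was spread over its 4 genes, with RCA and LHCB4.2 the brightest. Among the leaf markers LHCB4.2 had means of 1772.7 in B1798, 1479.4 in iae1 and 2679.4 in iae2. PRK had means of 823.6, 879.8 and 1005.6 in the same order, and its iae2 arrays lay above all others. RCA overlapped between all lines and SBPASE overlapped between iae2 and the others. Among the root markers PYK10 had means of 4218.3 in B1798 and 3341.5 in iae2. It was called lower in the limma test described below (adjusted p = 0.00898). EXPA7, EXPA18 and AT5G17820 lay higher in iae2 than in B1798 without overlap, with means of 38.7, 48.1 and 69.1 against 27.7, 36.3 and 50.7. None of these 3 was called in limma (adjusted p = 0.135, 0.0716 and 0.0695). Of all tested probe sets, 17.6% had such a gap with iae2 higher. Of 5 shoot meristem markers, 2 were read, LAS and CLV3, and their sum stayed between 31.8 and 47.7 on the 9 arrays. CLV3, which defines the stem cells of the apex, was too dim to be tested, and none of the 4 seed markers was read by a named probe set. The iae2 arrays therefore stood apart from the others in the GAPDH ratio, LHCB4.2, PRK, PYK10 and EXPA18. RCA, SBPASE, EXPA7 and AT5G17820 overlapped between iae2 and another line. Markers also differed between iae1 and B1798. In limma AT5G17820 (log2 fold change 0.51, adjusted p = 0.0202) and SBPASE (0.31, adjusted p = 0.0458) were called higher in iae1. LHCB4.2 lay lower in iae1 than in B1798 without overlap but was not called (adjusted p = 0.0978). No other tested marker was called in iae1. The part of the GAPDH ratio and the markers in the differences below was not tested except where a value is given. In whole tissue, fewer cells or plastids and less RNA in each cannot be told apart.

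In iae1 the transcripts of this gene set lay mostly above those of B1798, and in iae2 they lay on both sides. A probe set was tested when it reached the 40th percentile of its array on at least 3 arrays, and 25 members passed, for 24 genes. The members left out were rpoB, with signals between 0.9 and 11.6, and ycf2, between 8.1 and 18.5. A change was called at an adjusted p under 0.05 in limma, on log2(signal + 16), with adjustment over all 14404 tested probe sets. All fold changes below are on that log2 scale, which understates the change of dim probe sets. Both comparisons with B1798 use the same 3 B1798 arrays, and the comparison of iae2 with iae1 reuses arrays of both, so the 3 are not independent of each other.

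In iae1, 6 of 25 tested members were called, all of them higher: rpoC2, rpl16, rps19, rpl33, rps3 and rpl22. That is 24.0% of the members, where 7.21% of all tested probe sets were called, 3.8% higher and 3.42% lower. Their median log2 fold change was 0.23, against 0.0095 for all tested probe sets and 0.03 for the other plastid genes in the same number range. Positive values were found for 20 members and negative ones for 5, over a range from -0.44 for rps18 to 0.70 for rpl14. On 11 members the 3 iae1 arrays all lay above the 3 B1798 arrays, and on none did they all lie below. Among all tested probe sets, such a gap was found for 13.0% with iae1 higher and 11.7% with iae1 lower.

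In iae2, 4 of 25 members were called against B1798: rpl33 was higher, and accD, rpoC2 and clpP were lower. This 16.0% stood beside 17.8% of all tested probe sets, 9.77% higher and 7.99% lower, so the members were called about as often as the array as a whole. The median log2 fold change of the members was -0.0055, with 11 positive and 14 negative values, against 0.0027 for all tested probe sets. Without overlap between the lines, 3 members were higher and 4 lower, or 7 of 25, where 33.3% of all tested probe sets showed a gap.

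Set directly against each other, the iae lines differed on 8 of 25 members. In iae2, rpoC2, rps19, rps15, accD, rps3, rpl32 and rpl16 were lower than in iae1 and rps18 was higher. That is 32.0%, beside 19.6% of all tested probe sets, of which 9.44% were lower and 10.2% higher. The members' median log2 difference was -0.19, with 21 of 25 values below 0, against -0.0043 for all tested probe sets and -0.14 for the other plastid genes. The 3 arrays of each line did not overlap on 14 members, 13 of them lower in iae2, and 35.8% of all tested probe sets had such a gap.

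Taken over the 3 lines at once, 10 members passed limma's moderated F test, with 24.4% of all tested probe sets passing it. Mean signal was highest in iae1 for 19 of the 25 members, in iae2 for 4 and in B1798 for 2. It was lowest in iae2 for 13 members, in B1798 for 9 and in iae1 for 3. The median coefficient of variation of the tested members between arrays of a line was 9.68% for B1798, 8.09% for iae1 and 11.7% for iae2. As a share of the summed signal of an array, the members made up 0.455% to 0.469% in B1798, 0.502% to 0.512% in iae1 and 0.440% to 0.485% in iae2, so the iae1 arrays lay above all others.

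**Figure D1:**
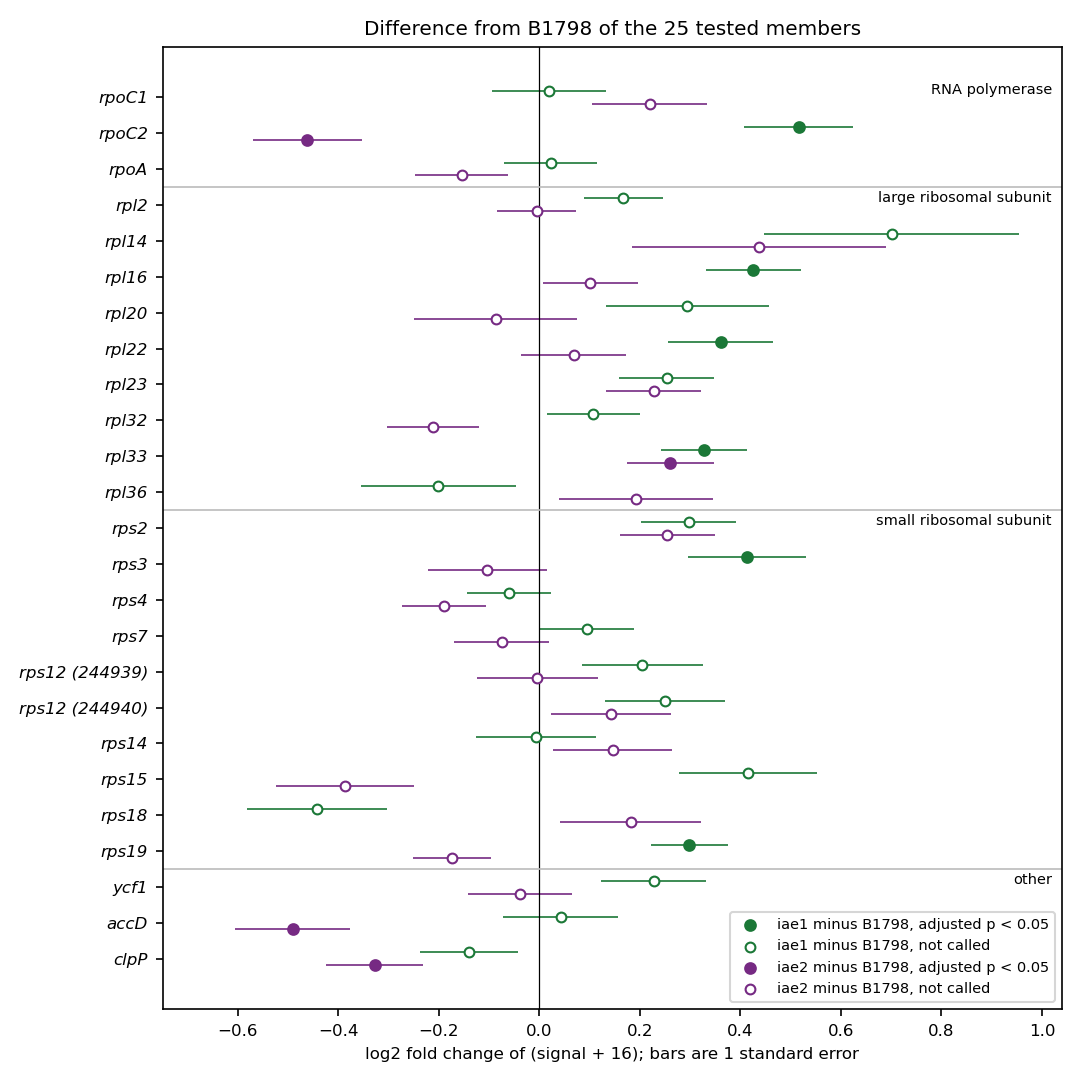
Log2 fold change of (signal + 16) against B1798 for the 25 tested members, grouped by role, with iae1 in green and iae2 in purple. Points are limma estimates, bars are 1 standard error, and filled points passed an adjusted p of 0.05. The filled green points all lie to the right of 0, and of the 4 filled purple points only rpl33 does.

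Of the polymerase genes, rpoC2 was the one that moved. It encodes the β'' subunit, which corresponds to a part of the single β' chain of bacteria. It read 85.8, 79.6 and 76.8 on the B1798 arrays, 116.4, 144.6 and 108.3 in iae1, and 59.8, 48.8 and 54.3 in iae2. The 3 lines did not overlap: every iae1 array lay above every B1798 array, and every iae2 array lay below. In means, 80.7 ± 4.61 in B1798 (SD, n = 3) stood against 123 ± 19.1 in iae1, 1.52 times as much, and 54.3 ± 5.50 in iae2, 0.673 times as much. In iae1 the log2 fold change was 0.52 ± 0.11 (SE, adjusted p = 0.00842), and iae2 had -0.46 ± 0.11 (adjusted p = 0.00727). Directly, iae2 lay -0.98 ± 0.11 from iae1 (adjusted p = 1.09e-05), and no other member differed as much between any of the lines.

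The other polymerase genes did not pass the test in any comparison. For rpoC1, which encodes the β' subunit with the catalytic centre, signals were 393.7, 408.6 and 393.3 in B1798, 364.9, 477.2 and 378.5 in iae1, and 382.7, 509.4 and 520.4 in iae2. These overlapped between all lines, and the log2 fold change was 0.02 in iae1 (adjusted p = 0.95), with 0.22 for iae2 (adjusted p = 0.214). rpoA, for the α subunit on which the core assembles, had 203.6 to 243.3 in B1798, 222.0 to 250.8 in iae1 and 184.0 to 215.6 in iae2, giving 0.02 and -0.15 on the log2 scale. rpoB, for the β subunit, stayed under 12 on every array and has no test. In the genome rpoB, rpoC1, rpoC2 and rps2 follow one another in this order, so the called gene had a neighbour on either side that was not called.

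Across the 9 arrays, the signal of rpoC2 on the log2 scale followed some members closely and ran against others. Pearson's r was 0.92 with rps19, 0.88 with rps15, 0.85 with rps3 and 0.83 with accD. At the other end it was -0.78 with rps18 and -0.57 with rpl36, and for rpoC1 it was -0.39. These are descriptions over 9 arrays of 3 lines, which share the differences between the lines. Among the 7852 other tested probe sets with a single gene, the closest 5 were nuclear: KELP, a transcriptional coactivator gene on chromosome 4 (r = 0.994), AT1G12080 (0.983), AT3G07870 (0.978), AT1G54740 (0.977) and AT5G18310 (0.968). KELP had signals of 204.0, 181.4 and 193.8 in B1798, 290.6, 341.2 and 255.6 in iae1, and 156.6, 125.3 and 137.6 in iae2. As with rpoC2, its 3 lines did not overlap.

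**Figure D2:**
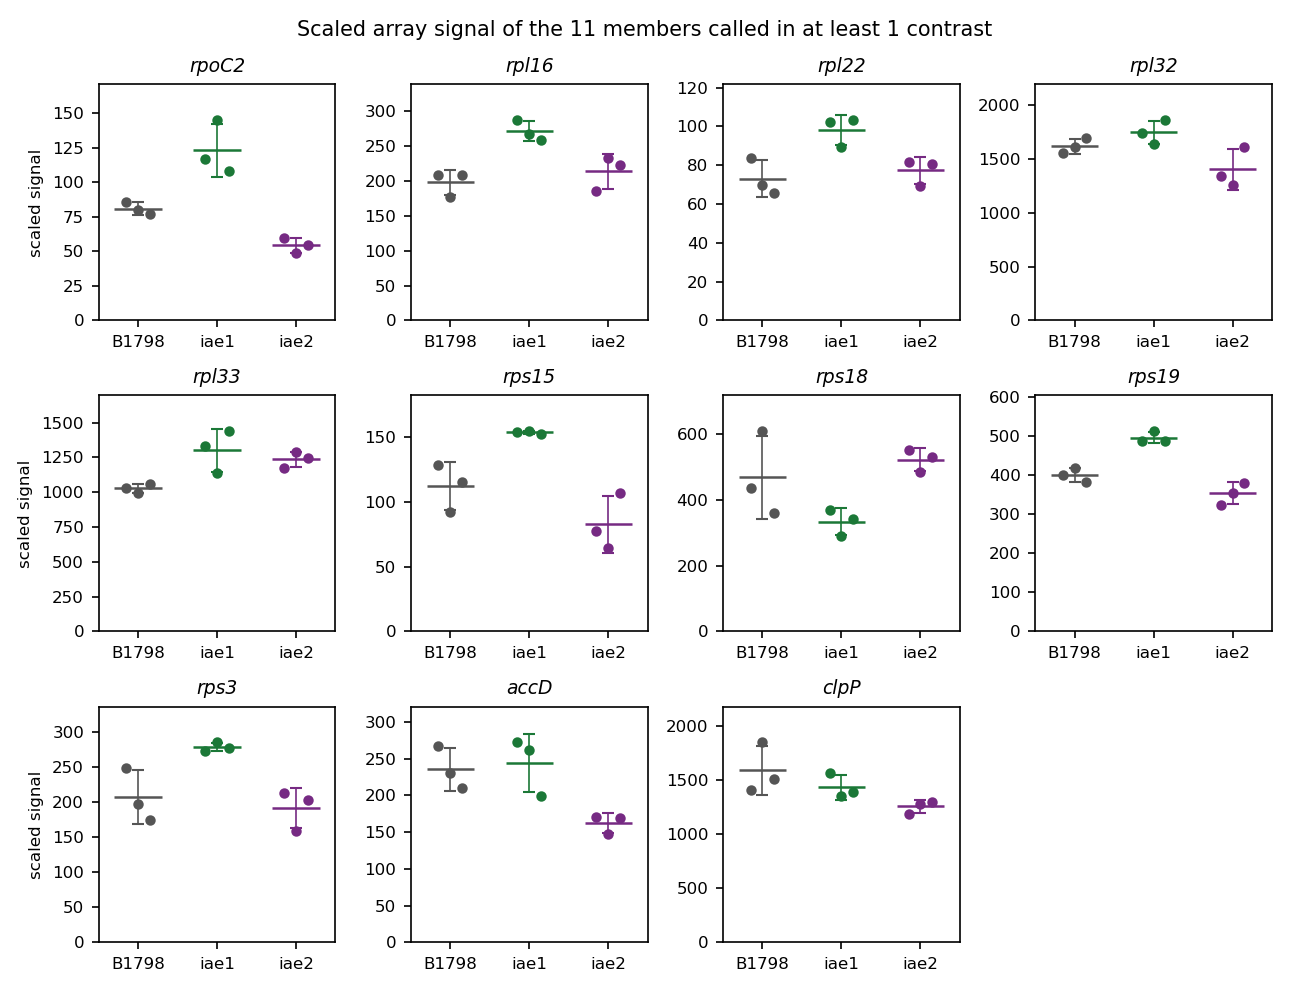
Scaled array signal of the 11 members called in at least 1 comparison, by line, on axes that start at 0. Points are single arrays, horizontal lines are means and bars are 1 SD (n = 3). In rpoC2 the lines separate completely, with iae2 below 60 and iae1 above 108, while rps15 and rps3 show their tightest group of arrays in iae1.

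Of the 9 large subunit genes, 3 rose in iae1, rpl16, rpl22 and rpl33, and none fell. The median log2 fold change of the 9 was 0.29 in iae1 and 0.10 in iae2. The 3 called in iae1 made up 33.3%, beside 7.21% of all tested probe sets. rpl16, whose product sits near the tRNA binding sites of the bacterial ribosome, read 208.4, 177.4 and 208.8 in B1798, 286.8, 267.9 and 258.9 in iae1, and 185.7, 233.1 and 223.6 in iae2. The iae1 arrays lay above all 6 others, while iae2 overlapped B1798. In iae1 it rose by 0.43 ± 0.09 (adjusted p = 0.0123), iae2 had 0.10 against B1798 (adjusted p = 0.524), and iae2 was lower than iae1 by -0.32 (adjusted p = 0.0247).

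rpl22 encodes a protein that lines the exit tunnel for the growing chain in bacteria. Signals were 83.7, 69.9 and 65.9 in B1798, 102.5, 89.3 and 103.1 in iae1, and 81.8, 69.3 and 80.9 in iae2. Again the iae1 arrays were the 3 highest of the 9. The rise in iae1 was 0.36 ± 0.10 (adjusted p = 0.048), close to the threshold, and iae2 did not pass against either line.

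rpl33 was the one member called higher in both iae lines. In tobacco its product is dispensable under normal growth and needed in the cold. It read 1033.6, 994.9 and 1055.6 in B1798, 1329.2, 1134.9 and 1436.3 in iae1, and 1175.3, 1287.7 and 1243.0 in iae2. All 6 arrays of the iae lines lay above the B1798 arrays, and the iae lines overlapped each other. It rose by 0.33 ± 0.09 in iae1 (adjusted p = 0.03) and, less, by 0.26 ± 0.09 in iae2 (adjusted p = 0.0477), the difference between them not being called.

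rpl32, for a protein that tobacco plastids cannot do without, differed between the iae lines only. Its signals were 1554.7, 1606.8 and 1690.2 in B1798, 1744.3, 1634.0 and 1855.9 in iae1, and 1341.2, 1252.8 and 1610.3 in iae2. Every iae2 array was below every iae1 array, and both lines overlapped B1798. The direct log2 difference was -0.32 ± 0.09 (adjusted p = 0.0231), and neither line passed against B1798, with 0.11 and -0.21.

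The remaining large subunit genes passed no test. The largest estimate of a member against B1798 was that of rpl14 in iae1, 0.70 ± 0.25 (adjusted p = 0.115). On this probe set B1798 read 101.8, 25.3 and 61.2, and iae1 read 102.7, 97.4 and 103.8, so the first B1798 array lay among those of iae1. rpl2, whose product is needed for peptide bond formation in bacteria, was brighter, with 2213.5 to 2324.7 in B1798, 2503.1 to 2597.7 in iae1 and 2157.1 to 2501.7 in iae2. Its iae1 arrays lay above all the others, yet the estimate of 0.17 ± 0.08 did not pass (adjusted p = 0.234). Its neighbour rpl23 had 0.25 in iae1 and 0.23 in iae2, rpl20 had 0.29 and -0.09, and rpl36 had -0.20 and 0.19.

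Among the 10 probe sets for the small subunit, rps3 and rps19 rose in iae1 and none was called in iae2 against B1798. The median log2 fold change of the 10 was 0.23 in iae1 and -0.04 in iae2. The 2 called in iae1 made up 20.0%, beside 7.21% of all tested probe sets. Against B1798, 17.8% of all tested probe sets were called in iae2. Between the iae lines 4 were called, with rps15, rps3 and rps19 lower in iae2 and rps18 higher. That is 40.0%, beside 19.6% of all tested probe sets. rps19, for a protein of the head of the subunit, read 401.0, 417.3 and 382.3 in B1798, 487.1, 511.8 and 488.2 in iae1, and 324.0, 355.4 and 380.8 in iae2. The 3 lines did not overlap, in the same order as for rpoC2, although the highest iae2 array, 380.8, came close to the lowest of B1798, 382.3. It rose by 0.30 ± 0.08 in iae1 (adjusted p = 0.0277), the estimate of -0.17 ± 0.08 for iae2 did not pass (adjusted p = 0.141), and the direct difference was -0.47 ± 0.08 (adjusted p = 0.000432).

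rps3, whose product lies at the entry of the mRNA channel in bacteria, gave 249.7, 198.2 and 175.0 in B1798, 273.5, 285.5 and 278.1 in iae1, and 212.9, 158.9 and 203.0 in iae2. The iae1 arrays were the highest and lay close together, and iae2 overlapped B1798. The log2 fold change was 0.41 ± 0.12 in iae1 (adjusted p = 0.0458), and iae2 stood -0.52 ± 0.12 from iae1 (adjusted p = 0.00561).

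The largest difference between the iae lines after rpoC2 was that of rps15, whose product is dispensable in tobacco. Its signals were 128.6, 92.0 and 115.3 in B1798, 153.7, 154.1 and 152.3 in iae1, and 77.2, 64 and 106.9 in iae2. Again iae1 lay above all other arrays, and iae2 overlapped B1798 through its replicate 3. The direct log2 difference was -0.80 ± 0.14 (adjusted p = 0.000632). Against B1798 the estimates were 0.41 ± 0.14 in iae1 and -0.39 ± 0.14 in iae2, with adjusted p-values of 0.0825 and 0.064, so neither was called.

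rps18, for a protein of the platform of the subunit that tobacco plastids need, ran the other way. It read 436.4, 607.2 and 359.5 in B1798, 368.8, 290.0 and 342.4 in iae1, and 551.8, 482.9 and 528.9 in iae2. The iae2 arrays were all above those of iae1, and the B1798 arrays reached from the range of iae1 to above that of iae2. The direct difference was 0.62 ± 0.14 (adjusted p = 0.00505). In iae1 against B1798 the estimate of -0.44 ± 0.14 did not pass (adjusted p = 0.0701), and in iae2 it was 0.18.

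The other small subunit genes were not called. rps2, next to rpoC2, had 0.30 ± 0.09 in iae1 (adjusted p = 0.0714), with 0.25 ± 0.09 for iae2 (adjusted p = 0.0784), and its 3 iae1 arrays, 369.7 to 409.3, lay above the 3 of B1798, 292.7 to 327.5. Both probe sets of rps12, whose product works in the decoding centre, had small differences, 0.20 and 0.25 in iae1 and -0.0041 and 0.14 in iae2. rps4 and rps7, for proteins that start the assembly of the bacterial subunit, gave -0.06 and 0.09 in iae1 and -0.19 and -0.08 in iae2. rps14 was dim, between 29.6 and 44.4 on the 9 arrays, with -0.0065 for iae1 and 0.15 for iae2.

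Of the 4 genes outside transcription and translation, accD and clpP fell in iae2, ycf1 was not called and ycf2 was not tested. The 2 called against B1798 were 66.7% of the 3 tested, beside 17.8% of all tested probe sets. accD encodes a subunit of the acetyl-CoA carboxylase that starts fatty acid synthesis in the plastid. It read 267.3, 229.8 and 209.5 in B1798, 271.9, 261.7 and 198.7 in iae1, and 171.2, 147.5 and 168.7 in iae2. The iae2 arrays were the 3 lowest, and the other lines overlapped. Against B1798, iae2 had a log2 fold change of -0.49 ± 0.11 (adjusted p = 0.00685), where iae1 had 0.04 (adjusted p = 0.876), and iae2 was lower than iae1 by -0.53 ± 0.11 (adjusted p = 0.00356).

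clpP encodes a catalytic subunit of the Clp protease of the stroma. It read 1414.1, 1851.1 and 1514.6 in B1798, 1570.5, 1353.8 and 1388.6 in iae1, and 1192.2, 1281.4 and 1301.9 in iae2. The iae2 arrays lay below all 6 others, and iae1 overlapped B1798. In iae2 it was lower by -0.33 ± 0.10 (adjusted p = 0.028), with -0.14 in iae1, and the direct difference of -0.19 did not pass. ycf1, which encodes a protein of the inner envelope linked to protein import, gave 0.23 in iae1 and -0.04 in iae2, neither called. ycf2, whose product is part of a complex tied to the same import, was not tested.

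Placed in the order of the plastid genome, the members that rose in iae1 were partly neighbours. The consecutive genes rpl16, rps3, rpl22 and rps19 were all called higher, by 0.43, 0.41, 0.36 and 0.30. On one side of this run lay rpl14 (0.70), rpl36 (-0.20) and rpoA (0.02), and on the other rpl2 (0.17) and rpl23 (0.25), none of them called. The same run gave 0.10, -0.10, 0.07 and -0.17 in iae2 against B1798, none called, and against iae1 rpl16, rps3 and rps19 were lower in iae2. Elsewhere neighbours parted: rpl33 rose in iae1 while rps18, the next gene, had -0.44. Next to rpl32 lies ccsA, a gene for the attachment of haem to c-type cytochromes, which was 1.69 higher in iae2 than in B1798 and 1.89 higher than in iae1. On rpl32 itself iae2 stood -0.32 from iae1. accD lies between rbcL and psaI, and all 3 were called lower in iae2, rbcL by -0.26 and psaI by -0.31.

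**Figure D3:**
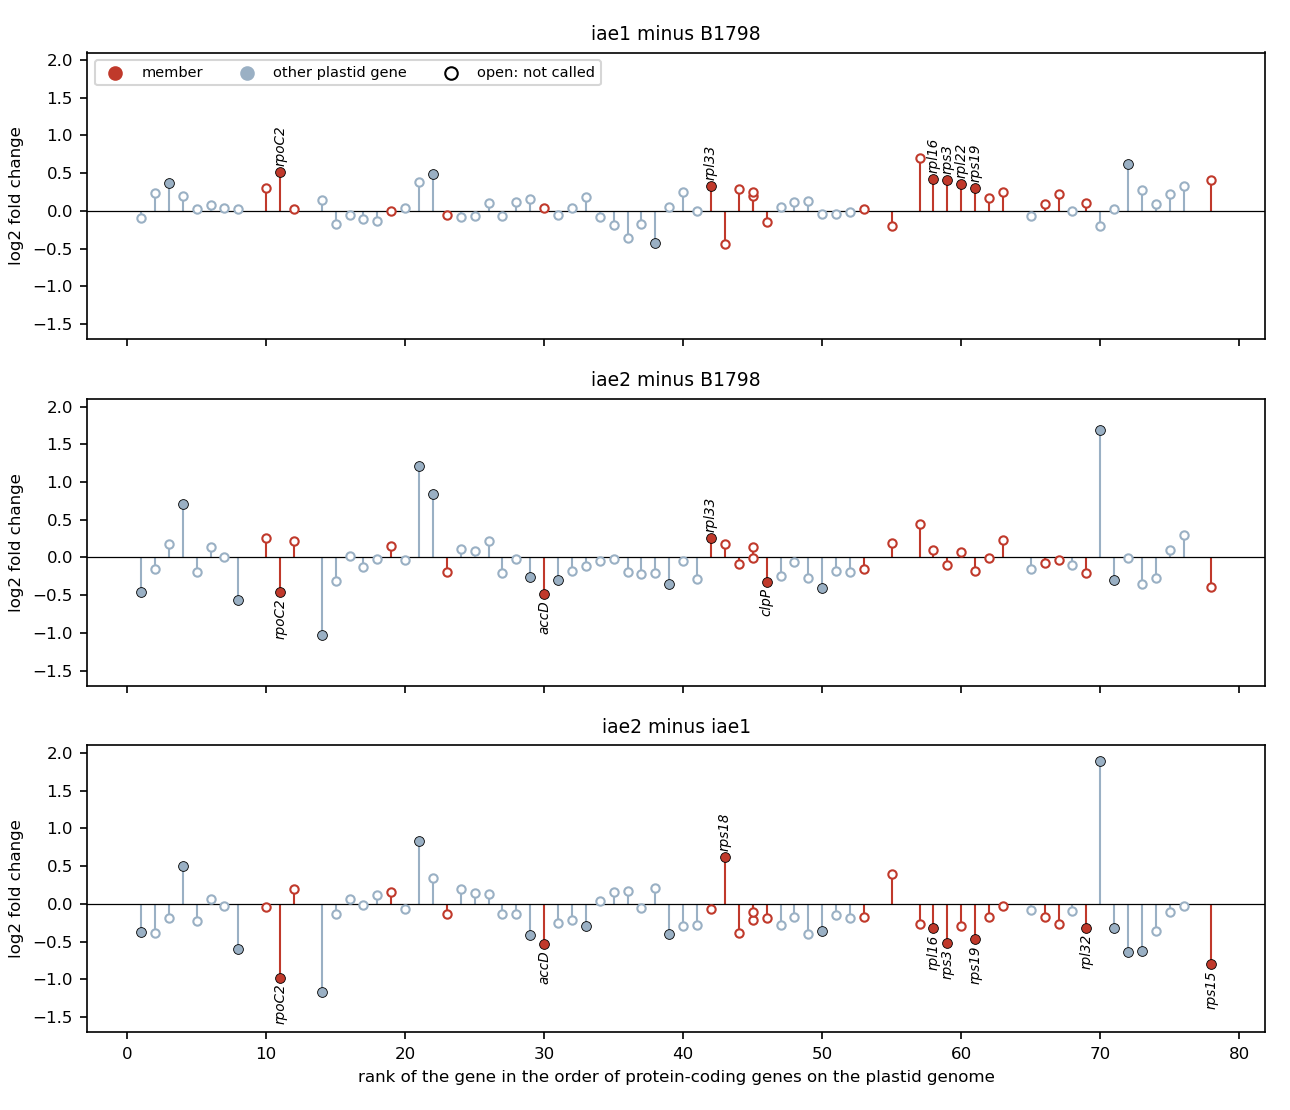
Log2 fold change of the tested plastid genes by their rank in the gene order of the plastid genome, for iae1 minus B1798, iae2 minus B1798 and iae2 minus iae1. Members are red, other plastid genes including those outside the number range are grey, and filled points passed an adjusted p of 0.05. The 4 labelled genes side by side in the upper panel are rpl16, rps3, rpl22 and rps19, and the tallest line in the other panels is ccsA at 1.69 and 1.89.

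Other plastid genes, mostly for photosynthesis, were less on one side in iae1: 3 of 44 tested were called, psaC (0.63) and ycf3 (0.49) higher and psbE lower (-0.43). That is 6.82%, beside 7.21% of all tested probe sets. In iae2 10 of 44 were called against B1798, or 22.7%, beside 17.8% of all tested probe sets. Of these 10, 3 were higher and 7 lower, and the median of the 44 was -0.14. The largest changes were ccsA (1.69) and psaA (1.21) upward and petN (-1.03) and atpH (-0.57) downward. Between the iae lines 11 were called, with ccsA (1.89) and psaA (0.83) higher in iae2 and petN (-1.18) and psaC (-0.64) lowest. Of the 9 tested mitochondrial genes, none was called in iae1 against B1798 in limma, where 2 had an unadjusted p under 0.05. In iae2 4 were called, or 44.4%, beside 17.8% of all tested probe sets: ccb452 (0.51) and nad4L (0.49) higher and nad4 (-0.61) and cox2 (-0.40) lower. Between the iae lines 5 were called, or 55.6%, beside 19.6% of all tested probe sets. Among them were ccb452 (0.63) and nad4L (0.36) higher in iae2 and nad4 (-0.84) and orfX (-0.46) lower. Whether the members differ from these groups was not tested.

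Outside the number range, matK, the gene of a plastid splicing factor, gave 0.23 for iae1 and -0.16 for iae2, neither called. rps16 was called higher in iae1 by 0.36 ± 0.09 (adjusted p = 0.0251) and had 0.18 in iae2.

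Nuclear genes whose products join the plastid ones were looked up only through probe sets named with 1 gene ID. Of 93 loci in 8 lists, 15 were matched to such a probe set and 14 were tested. These were 9 of 36 plastid ribosomal proteins, 2 of 5 translation factors, 2 of 11 Clp subunits and 1 of 9 partners of Ycf1 and Ycf2. None was tested of the 8 sigma factors and phage-type polymerases, the 13 polymerase-associated proteins, the 7 RNA processing factors and the 4 carboxylase subunits. In these lists only AT5G15700 was matched, and it was too dim to be tested. The other loci had no match by name, which does not say that the array lacks them or that they were dim. Among the ribosomal proteins, both genes for L19 rose in iae1, AT5G47190 by 0.34 (adjusted p = 0.0294) and AT4G17560 by 0.31 (adjusted p = 0.03), and the median of the 9 was 0.13. These 2 made up 22.2%, beside 7.21% of all tested probe sets. In iae2 4 of the 9 rose: AT1G29070 for L34 by 0.40, AT4G17560 by 0.38, AT3G13120 for S10 by 0.33 and AT5G47190 by 0.27, with adjusted p-values from 0.00345 to 0.0471 and a median over the 9 of 0.27. That is 44.4%, beside 17.8% of all tested probe sets. In iae2 the nuclear-encoded ribosomal proteins called against B1798 were all higher. So was rpl33, the only plastid-encoded one called, a call kept in 2 of the 9 fits that each left out 1 array. The medians of the plastid-encoded ones in iae2 were 0.10 for the large subunit and -0.04 for the small one. Between the iae lines, AT5G65220 for L29 was 0.25 higher in iae2, AT5G24490, for a ribosome-associated protein, was -0.32 lower, and CLPR3, AT1G09130, a Clp subunit that lacks the catalytic residues, was 0.34 higher. These 3 of the 14 tested made up 21.4%, beside 19.6% of all tested probe sets. The translation factors and the Ycf1 and Ycf2 partner were not called in any comparison.

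Calls differed in how far they held when 1 array was left out. All 9 repeats kept rpoC2 in the 3 comparisons, with adjusted p-values up to 0.0489 in iae1, 0.0379 in iae2 and 0.000117 between the iae lines. They also kept accD in iae2 against both lines, and rps15, rps18, rps3 and rps19 between the iae lines. The other rises in iae1 were less firm: rpl16 was lost without iae1 replicate 1 or B1798 replicate 2, and rpl33, rps3, rps19 and rpl22 were lost in 5, 6, 6 and 8 of the 9 repeats, with adjusted p-values up to 0.141, 0.164, 0.0997 and 0.148. Only rpoC2 was still called in iae1 without iae1 replicate 1, and likewise without B1798 replicate 2. In iae2, rpl33 was lost in 7 repeats and clpP in 3, without iae2 replicate 1, iae2 replicate 2 or B1798 replicate 2. Between the iae lines, rpl32 was lost in 4 repeats and rpl16 in 3. The direction of these 18 calls was the same in every repeat. With the GAPDH ratio as a covariate, which overlaps with the line itself in iae2, the estimates there were -0.58 ± 0.23 for rpoC2 (adjusted p = 0.232) and -0.73 ± 0.24 for accD (adjusted p = 0.135), and neither was called. In iae1, rpoC2 had 0.48 ± 0.12 (adjusted p = 0.0424) and rpl16 0.45 ± 0.11 (adjusted p = 0.0322) in that fit, and both were still called. When the arrays were instead made equal on the other plastid probe sets, a setting chosen after seeing the data, rpoC2, rpl16 and rps3 were called higher in iae1 and rps18 lower.

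**Figure D4:**
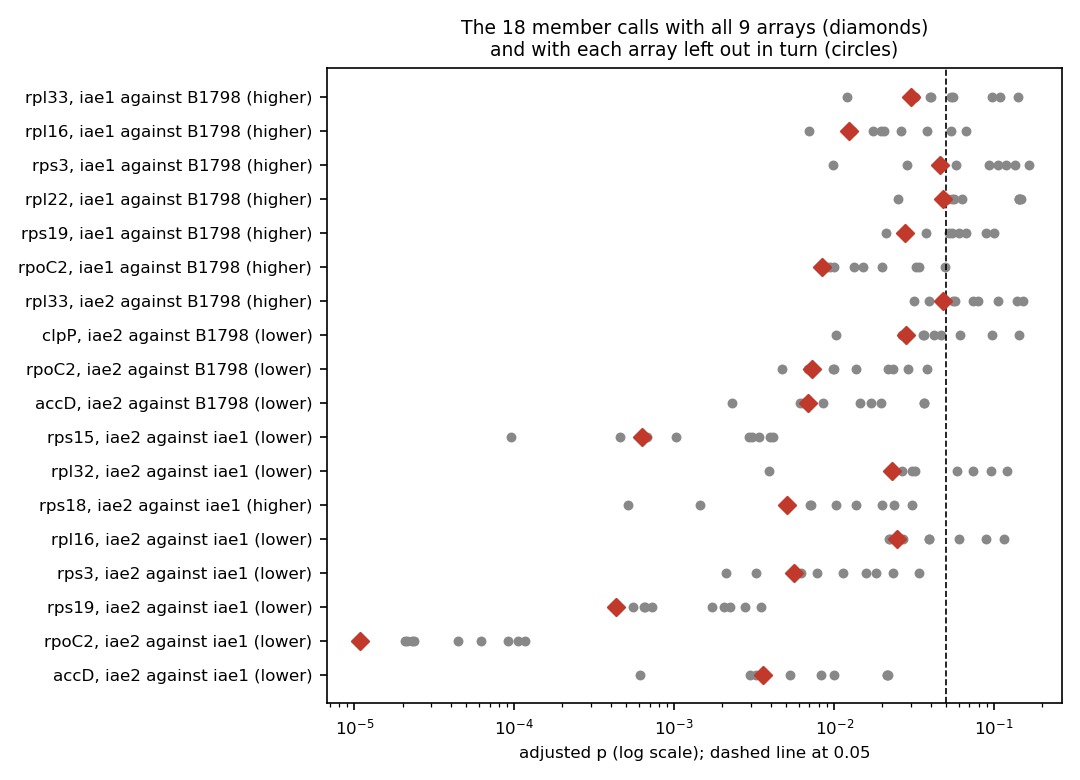
Adjusted p of the 18 member calls on a log axis, with diamonds for the fit to all 9 arrays and grey circles for the 9 fits that each leave out 1 array. The dashed line marks 0.05. The circles of rpoC2 lie left of it in the 3 comparisons, and most of those of rpl22 in iae1, 8 of 9, lie right of it.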

How the data were processed

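The deposited values were intensity signals on a linear scale, 1 per probe set and array, which the authors had scaled to a common trimmed mean (2% left out at each end). How probes were summarised is not given in the sources used here. Label was made from oligo(dT)-primed cDNA, per the labels. After 64 control probe sets were set aside, 14404 of 22746 passed the filter. A mean per line was fitted to all 9 arrays with limma 3.58.1 (R 4.3.3), with an intensity trend and Benjamini-Hochberg adjustment within each of 3 two-sided contrasts, and all adjusted p-values come from these fits. The fit was tested on simulated data. The number of arrays limits the precision.

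Gene names came from the platform annotation, loci and gene order from a RefSeq table of TAIR10.1. Of 126 probe sets in the range, 82 had 1 gene ID, 9 several and 35 none. No coordinates are given, only the order of the genes. Values are given array by array for every member called in a contrast. For the other organelle genes the 2 largest called changes per direction are named, for the nuclear lists the called members, and for likeness to rpoC2 the 5 highest Pearson correlations. The members, lists and rules were chosen with earlier results of these data known. Same-numbered arrays did not deviate together (r from -0.147 to 0.141), so numbers were not taken as pairs.

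Alternatives changed the pseudocount, floor, scaling, filter, variance model, lines in the fit, threshold and covariates, or left out 1 array. Figures were drawn with matplotlib 3.10.9.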

Additional observations from a re-analysis of the deposited data

Results flagged for a closer look

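The effect of the lines on rpoC2, measured against B1798, had opposite signs in iae1 and iae2. The log2 effect was 0.52 in iae1 and -0.46 in iae2, and the difference between them, tested by limma's direct comparison of the lines, was -0.98 (adjusted p = 1.09e-05). All 3 arrays of iae1 lay above and all 3 of iae2 below the B1798 arrays. The calls of rpoC2 held in all 9 fits that each left out 1 array. Groups of 3 arrays are too small to judge whether a single array is outlying.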

How the results depend on the processing

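None of the 18 called member differences changed sign under any of the alternatives, while 20 of the 57 uncalled ones did so in at least 1, arrays made equal on the other plastid probe sets included. Of the 18 calls, those of rpoC2 in iae1 against B1798 and of rpoC2, rps15, rps3 and accD between the iae lines passed in all 15 settings other than leaving out an array. The number of members called in iae1 fell from 6 to 3 with no filter, to 2 without the intensity trend, to 2 with the GAPDH ratio as a covariate and to 1 at an adjusted p under 0.01. In iae2 against B1798 it went from 4 to 2, 2, 0 and 2 in the same settings, and in the limma fit with 0 calls 3 members had an unadjusted p under 0.05. Between the iae lines 8 became 4 with the GAPDH ratio. Over all tested probe sets, 1039, 2558 and 2825 calls became 443, 1443 and 1576 at an adjusted p under 0.01, and 393 and 1102 for the latter 2 with the GAPDH ratio. Leaving out 1 array gave 1 to 6, 3 to 5 and 6 to 10 member calls, and 615 to 1026, 1947 to 2519 and 2010 to 2933 calls in all. With the replicate number as a block, 6, 4 and 8 members were called, rps15 replacing rpl33 in iae2, and 982, 2499 and 2745 probe sets in all. With array medians set equal, calls in iae1 split into 512 higher and 519 lower against 547 and 492 as reported. The added setting, chosen after seeing the data, that made the arrays equal on the other plastid probe sets called 4 members in iae1, 3 higher and 1 lower. In iae2 against B1798 it called 4, 2 higher and 2 lower, with rps2 gained and clpP lost. Between the iae lines it called 7, 2 higher and 5 lower, with rpl36 gained and rpl16 and rpl32 lost. The cause of these shifts was not tested. Probe sets near background, such as rpoB, ycf2 and rps14, limit what can be said of those genes.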
